A study of Rattus norvegicus with 6 samples.

Results

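The 8 genes described here encode components and regulators of complement, with RNA sequencing as the measurement and primary disc cells of the rat temporomandibular joint as the material. The disc is the fibrous cushion inside the jaw joint. They were chosen by symbol, as the genes C3, C1s, C1r, Cfb, Cfd, Serping1, Cd55 and Cd59, and all 8 were found among the 20675 genes of the deposited table. One group of 3 libraries came from cells given GSK101, an agonist of the calcium-permeable channel TRPV4, for 24 h, and the other group of 3 from cells given the solvent DMSO for the same 24 h. No genetic change was named for either group, and the agonist's dose, the animals behind each culture and the passage of the cells are not given in the sources used here. Nothing says that the samples of a group came from separate cultures or animals, so p-values measure only how these samples vary, part of which may be technical.

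Complement is a cascade of plasma and cell-surface proteins that tags and lyses targets and calls in leukocytes. In the classical pathway C1q binds a target and switches on the serine proteases C1r and then C1s, which cut C4 and C2. The alternative pathway builds its C3-cleaving enzyme from C3 and factor B with the help of factor D. Cells protect themselves with inhibitors of these enzymes, such as C1 inhibitor (Serping1) in the fluid phase, CD55 on the membrane against the C3-cleaving enzymes and CD59 against the membrane attack complex. The liver makes most circulating complement, but fibroblasts and chondrocytes also make some components.

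Each library held 43061102 to 45705238 counted reads. Transcripts of a disc fibroblast culture were present, with Col3a1 at 3521 ± 227 and Col1a1 at 1903 ± 135 RPKM (reads scaled to gene length in kilobases and to the library's counted reads) and Scx, the tendon transcription factor, at 34.7 ± 1.08 in the DMSO group (SD, n = 3). The cartilage collagen gene Col2a1 was near 0, at 0.0164 ± 0.00555 RPKM, whereas Acan, which encodes aggrecan, had 33.6 ± 3.88. Genes were tested with limma on log2(RPKM + 0.5) over the 12801 genes that reached an RPKM of 0.5 in 3 or more libraries, and called at a Benjamini-Hochberg adjusted p under 0.05.

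Start-site sequence (250 bases before and 50 after the annotated start, RefSeq, build GRCr8) was in the table used here for 4 of the 8 genes, C3, C1r, Cfd and Cd55, and not for C1s, Cfb, Serping1 and Cd59. The 3 sequences below are shown because they belong to the central component C3, the most abundant of the 8 transcripts and a gene called higher with GSK101. Capitals mark a match to the letters TTGCNNAA, a C/EBP motif, on either strand.
C3 (chr9:2201290-2201589, minus strand): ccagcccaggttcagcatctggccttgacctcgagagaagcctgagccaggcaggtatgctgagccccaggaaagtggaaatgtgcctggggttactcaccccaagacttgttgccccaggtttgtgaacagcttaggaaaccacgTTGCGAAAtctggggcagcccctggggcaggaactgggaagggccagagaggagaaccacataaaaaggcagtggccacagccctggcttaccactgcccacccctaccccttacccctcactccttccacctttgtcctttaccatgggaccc
C1r (chr4:159098763-159099062, plus strand): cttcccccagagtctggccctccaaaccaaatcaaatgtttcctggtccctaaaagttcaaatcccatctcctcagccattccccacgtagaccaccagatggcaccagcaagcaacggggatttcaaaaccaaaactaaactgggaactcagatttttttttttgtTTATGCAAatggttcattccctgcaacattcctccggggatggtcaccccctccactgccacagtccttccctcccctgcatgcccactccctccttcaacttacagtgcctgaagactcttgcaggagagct
Cd55 (chr13:44438052-44438351, minus strand): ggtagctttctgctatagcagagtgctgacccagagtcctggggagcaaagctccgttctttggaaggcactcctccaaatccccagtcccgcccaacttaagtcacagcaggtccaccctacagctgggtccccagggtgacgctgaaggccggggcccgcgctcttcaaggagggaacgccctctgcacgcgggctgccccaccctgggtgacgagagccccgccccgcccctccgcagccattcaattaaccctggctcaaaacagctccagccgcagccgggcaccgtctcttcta
In C3 the match began 104 bases before the start site and in C1r 83 bases before it. Cd55 and Cfd held no match to this motif, and none of the 4 sequences held TTCNNNGAA (STAT), TGANTCA (AP-1) or the NF-kB consensus. Of 27457 rat start-site sequences of this length, 10.5% held the C/EBP letters, 8.68% the STAT letters, 7.33% the AP-1 letters and 4.16% the NF-kB consensus on either strand, and a match is a description of letters, not of binding.

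Among the 8 genes, the transcript of the membrane regulator CD55 rose and that of the membrane regulator CD59 fell with GSK101, and the protease gene C1s rose with a call that many alternatives did not keep. C1r, Cfb, Cfd and Serping1 did not pass the test, and C3 was too low to enter it. In all, 2 of the 7 tested genes were called higher, against 20.1% of all tested genes, and 1 was called lower, against 11.9%. In total 42.9% of the 7 were called, against 31.9% of all tested genes, and with 7 genes this is not read as a difference. Of the 7, 3 had groups without overlap, against 47.3% of all tested genes. The median log2 fold change of the 7 was 0.01, beside 0.03 over all tested genes.

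**Figure D1:**
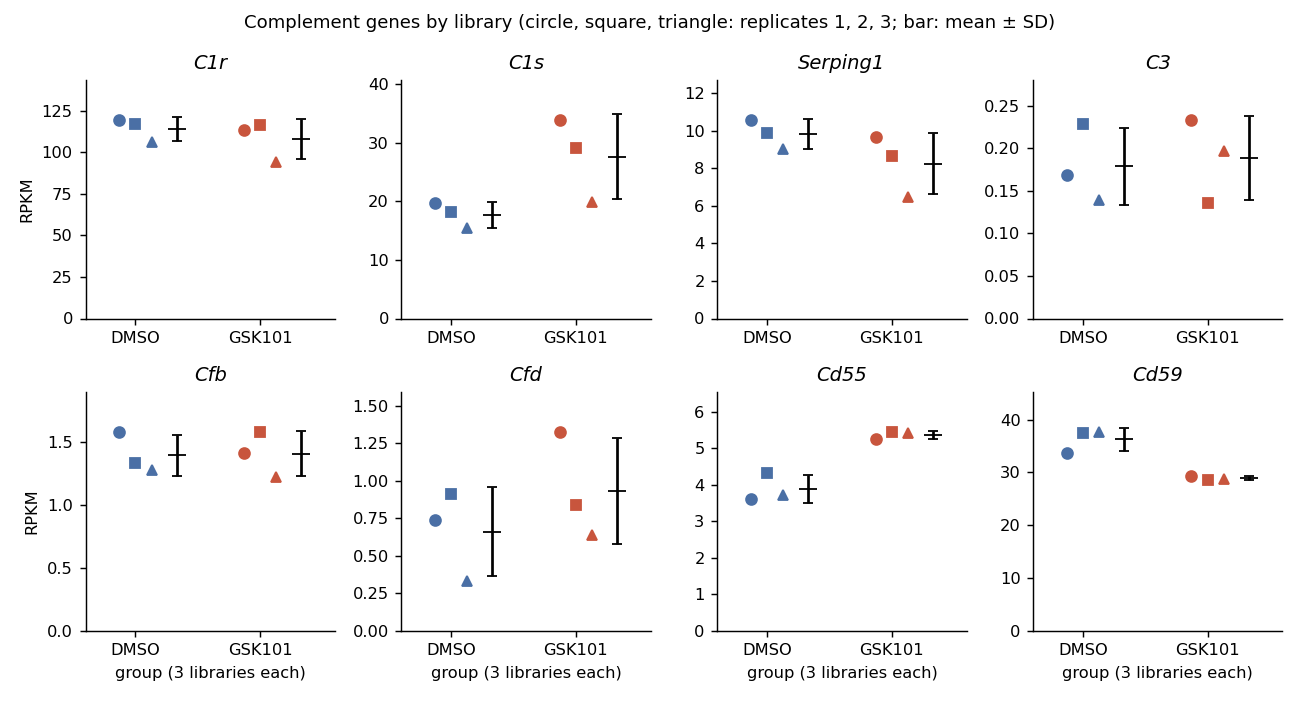
RPKM of each of the 8 genes in every library, with DMSO in blue and GSK101 in red, symbols for replicates 1 to 3 and a bar for the mean ± SD (n = 3). Cd55 and C1s lie higher and Cd59 lower in every GSK101 library than in every DMSO library, and the groups overlap for the other genes.

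The order of transcript levels per length in the DMSO group was C1r, Cd59, C1s, Serping1, Cd55, Cfb, Cfd and C3. No library of a gene reached the range of the next higher gene in that group. In the GSK101 group the ranges of Cd59 and C1s overlapped, as did those of Cfb and Cfd. C1r lay above 93.6% of the tested genes by its mean in the DMSO group, and Cfb above 16.9%. The place of Cfb is uncertain, because its row shares exons with C2, as given below.

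C1r encodes the protease that activates C1s within the C1 complex. Its RPKM was 119.7, 116.8 and 106.1 in DMSO replicates 1 to 3 and 113.5, 116.2 and 94.0 in GSK101 replicates 1 to 3. The groups overlapped, with a log2 fold change of -0.09 and a 95% interval from -0.28 to 0.11 (limma adjusted p = 0.489). No change of C1r was detected at this spread.

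C1s encodes the protease that cuts C4 and C2. Its RPKM was 19.7, 18.1 and 15.4 in the DMSO libraries and 33.9, 29.1 and 19.8 in the GSK101 libraries. The lowest GSK101 value, in replicate 3, lay just above the highest DMSO value, so the groups did not overlap, which held in the higher direction for 28.5% of all tested genes. The means were 17.7 ± 2.21 and 27.6 ± 7.18 (SD, n = 3), a 1.56-fold ratio, and the log2 fold change was 0.60 (SE 0.18, limma adjusted p = 0.0393). The call was lost when any library other than GSK101 replicate 3 was left out, with limma adjusted p from 0.0517 to 0.114, and was kept without that library, at 0.82 on the log2 scale (adjusted p = 0.00396). It was also lost with no mean-variance trend (adjusted p = 0.0656), with robust moderation (0.0847) and with no filter on low values (0.101). Other alternatives kept it. The limma adjusted p was 0.00389 with the replicate number as a block and 0.00326 with limma-voom on reads recovered from the RPKM values.

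C1r and C1s lie tail to tail on chromosome 4 of the Rnor_6.0 build, C1r on the plus strand from 157125998 to 157136829 and C1s on the minus strand from 157143592 to 157155609, with 6762 bases between them. No exon of either gene overlapped an exon of another gene in the table. The ratio of C1s to C1r within a library, chosen after the values were seen, was 0.165, 0.155 and 0.145 in the DMSO libraries and 0.299, 0.250 and 0.210 in the GSK101 libraries. Every GSK101 library had a higher ratio than every DMSO library, and the exact two-sided permutation test gave p = 0.1, the smallest that 3 against 3 allows.

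Serping1 encodes C1 inhibitor, the serpin that inactivates C1r and C1s. Its RPKM was 10.6, 9.91 and 9.04 with DMSO and 9.65, 8.65 and 6.45 with GSK101. The values overlapped, with the lowest in GSK101 replicate 3, and the log2 fold change of -0.26 had a 95% interval from -0.57 to 0.05 (limma adjusted p = 0.183). It was -0.10 without GSK101 replicate 3 and -0.37 without GSK101 replicate 1, and was not called in either case. The ratio of C1s to Serping1, also chosen after the values were seen, was 1.86, 1.83 and 1.70 with DMSO and 3.51, 3.37 and 3.07 with GSK101. Its means were 1.79 ± 0.0844 and 3.32 ± 0.228 (SD, n = 3), and the groups did not overlap (exact two-sided permutation p = 0.1, the smallest possible). The gene lies on chromosome 3 of Rnor_6.0, minus strand, from 72161189 to 72171078.

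GSK101 replicate 3 held the lowest of the 3 GSK101 values for 5 of the 7 tested genes, C1r, C1s, Serping1, Cfb and Cfd. Over all tested genes this library was the lowest of the 3 for 37.4%. In the DMSO group, replicate 3 also held the lowest of the 3 values for each of these 5 genes. The share of all tested genes lowest in that DMSO library was not computed. The 5 genes share libraries and are not independent of each other, and neither pattern was tested.

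**Figure D2:**
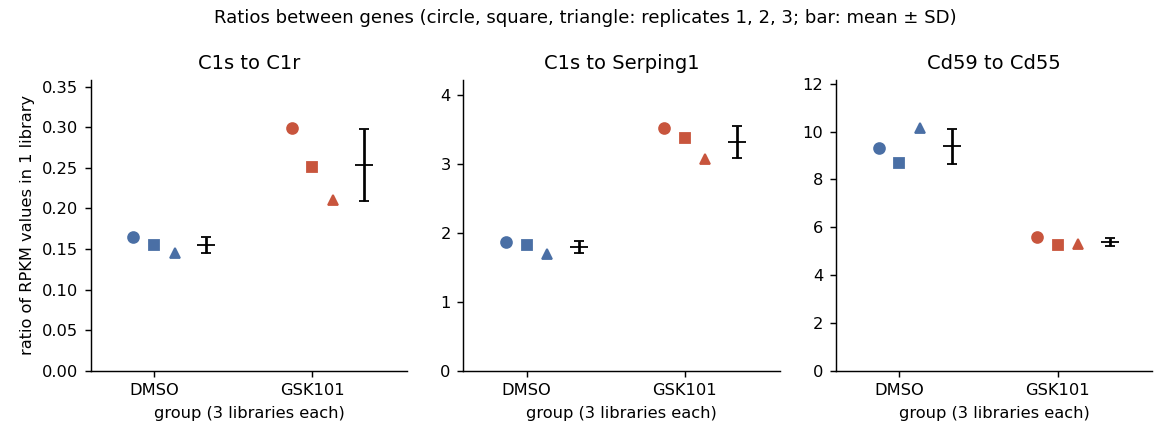
Ratios of the RPKM of C1s to that of C1r, of C1s to Serping1 and of Cd59 to Cd55 within each library, with symbols for replicates 1 to 3 and a bar for the mean ± SD (n = 3). The ratios of C1s lie higher, and the ratio of Cd59 to Cd55 lower, in each GSK101 library than in each DMSO library. For Cd59 to Cd55 this follows from the separate values of both genes.

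C3, the protein on which all pathways converge, had scarce transcripts in both groups. Its RPKM was 0.169, 0.228 and 0.140 with DMSO and 0.234, 0.136 and 0.197 with GSK101, on 32 to 54 reads per library. The values of the groups overlapped, and no difference was detected (exact two-sided permutation p = 0.8 on log2(RPKM + 0.5)). With 3 against 3 this test cannot give a p under 0.1. C3 lies on chromosome 9 of Rnor_6.0 from 9721105 to 9747167.

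Cfb encodes factor B, whose active fragment is the protease of the alternative pathway's C3-cleaving enzyme. Its RPKM was 1.58, 1.33 and 1.28 with DMSO and 1.41, 1.58 and 1.22 with GSK101, overlapping values with a log2 fold change of 0.01 and a 95% interval from -0.25 to 0.26 (limma adjusted p = 0.973). The table's Cfb row spans positions 4536203 to 4561066 of chromosome 20 (Rnor_6.0, minus strand), and 1808 of its exon bases, 38.9% of its length, are also exon bases of C2 on the same strand. These bases are 69.4% of the length of the C2 row. The sources used here do not say how reads in shared exons were assigned, so the levels of Cfb and C2 are uncertain.

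Cfd encodes factor D, or adipsin, the protease that cuts factor B and is abundant in fat tissue. Its RPKM was 0.739, 0.913 and 0.335 with DMSO and 1.33, 0.839 and 0.638 with GSK101, on 14 to 56 reads per library. The groups overlapped, and the log2 fold change of 0.31 had a wide 95% interval, from -0.24 to 0.86 (limma adjusted p = 0.362). Single libraries moved this value, to 0.09 without DMSO replicate 3, 0.12 without GSK101 replicate 1 and 0.47 without DMSO replicate 2, with no call in any of these. The 5-exon gene lies on chromosome 7 of Rnor_6.0, minus strand, from 12634170 to 12636004. Of 8 adipocyte markers, all in the table, 4 were tested and 1 was called, Lpl, which was lower, beside 31.9% called of all tested genes. Their summed RPKM ran from 35.4 to 40.4 with DMSO and from 30.1 to 37.8 with GSK101, most of it from the lipid carrier gene Fabp4. With DMSO, Lpl had 7.29 ± 0.389 and Pparg 1.48 ± 0.295 (SD, n = 3). The fat hormone genes Adipoq and Lep had 0.620 ± 0.0654 and 0.0317 ± 0.0156. Lep, Plin1, Cidec and Retn were below the filter.

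Cd55 encodes decay-accelerating factor, a membrane-anchored protein that breaks up the C3-cleaving enzymes. Its RPKM was 3.61, 4.32 and 3.72 with DMSO and 5.24, 5.45 and 5.41 with GSK101. The GSK101 libraries lay close together and all above the DMSO libraries. The means were 3.88 ± 0.379 and 5.37 ± 0.110 (SD, n = 3), a 1.38-fold ratio, with a log2 fold change of 0.42 (SE 0.08, limma adjusted p = 0.00472). The call was kept under all 17 alternatives that were run, with adjusted p from 0.000325 to 0.0204. On Rnor_6.0 the gene has 10 exons and spans positions 47126741 to 47154292 of chromosome 13, minus strand.

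Cd59 encodes protectin, which stops the assembly of the membrane attack complex. Its RPKM was 33.7, 37.4 and 37.7 with DMSO and 29.3, 28.7 and 28.8 with GSK101, so that all GSK101 libraries lay below all DMSO libraries, as did 18.7% of all tested genes. The means were 36.3 ± 2.22 and 28.9 ± 0.355 (SD, n = 3), a 1.25-fold ratio of DMSO to GSK101, and the log2 fold change was -0.32 (SE 0.05, limma adjusted p = 0.00333). The call was kept under all 17 alternatives, with adjusted p from 0.000450 to 0.0152. The row lies on the plus strand of chromosome 3 of Rnor_6.0 from 94010475 to 94028621, and RefSeq now names the gene Cd59b, with Cd59 as a synonym.

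Per length, Cd59 transcripts exceeded those of Cd55 in every library. The ratio of Cd59 to Cd55 was 9.33, 8.67 and 10.1 with DMSO and 5.59, 5.26 and 5.31 with GSK101. Its means were 9.38 ± 0.735 and 5.39 ± 0.178 (SD, n = 3). The groups could not overlap, because Cd59 was lower and Cd55 higher in every GSK101 library than in every DMSO library. The exact two-sided permutation p of 0.1, the smallest possible, was fixed by those values and adds nothing to them. This ratio was chosen after the values of both genes were seen.

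**Figure D3:**
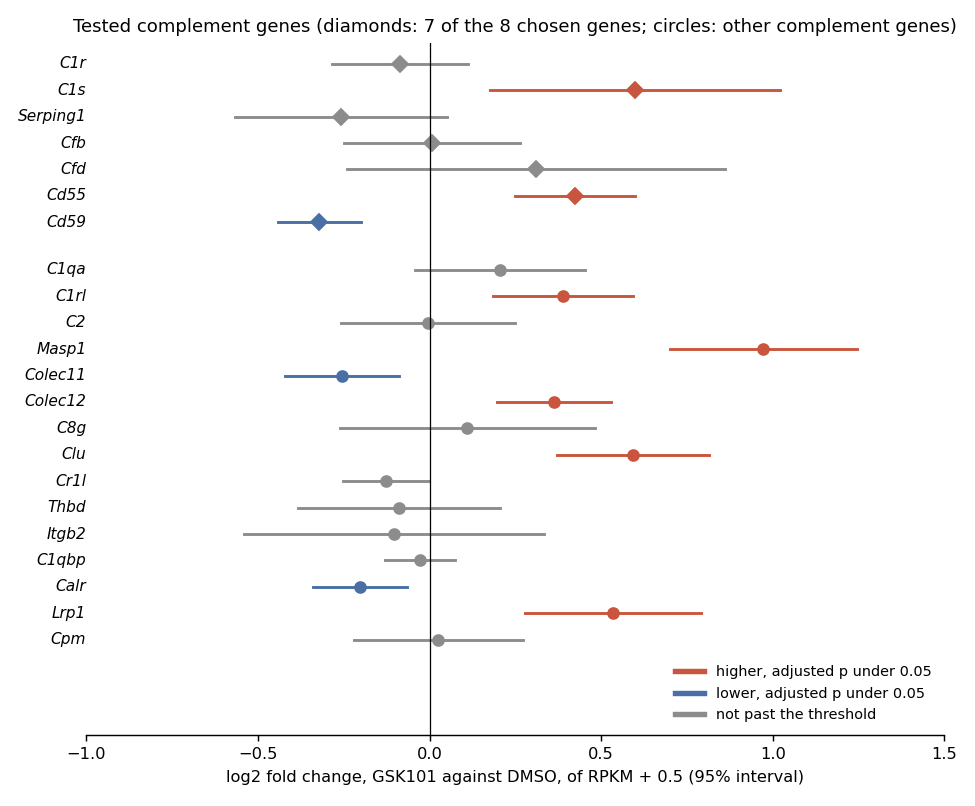
Log2 fold changes of GSK101 against DMSO on the log2(RPKM + 0.5) scale with 95% intervals from limma, for the 7 tested of the 8 genes and for 15 other tested complement genes. Red marks genes called higher and blue genes called lower, and Masp1 lies farthest to the right at 0.97.

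The other complement genes were taken from 6 lists by role, 55 symbols of which 45 were in the table. The absent symbols include Cd59b, the present RefSeq name of Cd59 given above. Of the 45 found, 15 passed the filter, 5 were called higher and 2 lower, with 0.03 as the median log2 fold change, the same as over all tested genes to this precision. The share called was 46.7% beside 31.9% of all tested genes.

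On the list of classical and lectin pathway genes, 3 of 6 tested genes were called higher and 1 lower, beside 20.1% and 11.9% of all tested genes. With 6 genes, among them a C1r-like gene and a scavenger receptor, this is not read as a change of either pathway. Masp1, whose transcripts encode a lectin pathway protease and, by splicing, the protease MASP-3 that activates factor D, had 12.7, 10.6 and 10.4 RPKM with DMSO and 24.6, 24.7 and 18.8 with GSK101. The groups lay well apart, and the 2.01-fold ratio of the means went with a log2 fold change of 0.97 (SE 0.12, limma adjusted p = 0.000981). The values sum over its splice forms, which cannot be told apart in gene-level data. Within the libraries the ratio of Masp1 to C1r went from 0.0985 ± 0.00744 to 0.209 ± 0.00885 (SD, n = 3), another ratio chosen after the values were seen.

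C1rl, a C1r-like protease gene that ends 2551 bases before C1r begins on the same strand, rose from 1.45 ± 0.101 to 2.06 ± 0.152 RPKM (SD, n = 3; log2 fold change 0.39, limma adjusted p = 0.0130), and its adjusted p was 0.0534 without GSK101 replicate 1. Colec12, a scavenger receptor collectin, rose 1.29-fold from 22.0 ± 2.05 (adjusted p = 0.00706). Colec11, a soluble collectin that binds MASP proteases, went from 3.24 ± 0.196 to 2.63 ± 0.0482, a log2 fold change of -0.26 (adjusted p = 0.0284), and the call was lost in 8 of 17 alternatives with adjusted p up to 0.0822. C2, the partner of C4 in the classical C3-cleaving enzyme, had 2.95 RPKM in each group with the shared exons named above. Of the 3 chains of C1q, C1qa had 2.26 ± 0.324 and 2.67 ± 0.251 RPKM (adjusted p = 0.184), whereas C1qb and C1qc had 4 to 18 and 2 to 10 reads per library. C4a and C4b, near-identical genes whose rows share 751 exon bases, both lay below the filter. Their reads may have been divided between them or left out. The C4a row has 84 merged exons from 2651599 to 4508214 of chromosome 20, a span that encloses the C4b row with its 41. The levels of C4a and C4b are therefore uncertain.

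In the terminal pathway Clu, which encodes clusterin, a soluble inhibitor of the membrane attack complex, rose 1.57-fold from 4.32 ± 0.345 to 6.79 ± 0.794 RPKM (SD, n = 3; log2 fold change 0.59, limma adjusted p = 0.00315). C8g had 0.718 and 0.817 and did not pass (adjusted p = 0.642). C5, C6, C7, C9 and Vtn were below the filter, with at most 2 reads in any library for C5, C6 and Vtn. None of the 5 listed genes of alternative pathway control in the table passed the filter. Among them Cfp, which encodes properdin, had 20 to 42 reads per library.

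Neither of the 2 tested genes among the other membrane regulators was called. Cr1l, which encodes Crry, a rodent regulator of the C3-cleaving enzymes, had 9.97 ± 0.362 and 9.08 ± 0.325 RPKM (SD, n = 3; log2 fold change -0.13, limma adjusted p = 0.111), without overlap of the groups, and was called lower with quantile normalization (adjusted p = 0.0385). Thbd, thrombomodulin, had 1.36 and 1.26 (adjusted p = 0.638). Cd46 had 2 to 14 reads per library.

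Of 4 tested genes among the receptors and C1q-binding proteins, Lrp1 rose and Calr fell. Lrp1, an endocytic receptor, went from 22.6 ± 2.11 to 33.1 ± 4.78 RPKM (SD, n = 3; log2 fold change 0.54, limma adjusted p = 0.00875). Calr, which encodes the chaperone calreticulin, went from 3106 ± 184 to 2699 ± 112 (log2 fold change -0.20, adjusted p = 0.0344). The Calr call was lost in 9 of 17 alternatives, among them rescaling to TPM and quantile normalization, with adjusted p up to 0.755. Itgb2, an integrin chain of complement receptors, and C1qbp had log2 fold changes of -0.10 and -0.03 and were not called. The receptors for C3a and C5a were scarce, with 0 to 8 reads per library for C3ar1 and 8 to 21 for C5ar1. Cpm, a carboxypeptidase that trims anaphylatoxins, had 0.633 and 0.653 RPKM (adjusted p = 0.877).

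Of 8 transcription factor genes known to act on complement genes, all tested, 3 rose and none fell, 37.5% called beside 31.9% of all tested genes. Cebpd, which encodes C/EBP delta, went from 13.4 ± 0.887 to 17.5 ± 1.23 RPKM (SD, n = 3; log2 fold change 0.37, limma adjusted p = 0.00607). Nfkbiz rose from 0.367 ± 0.0640 to 0.801 ± 0.142 (log2 fold change 0.58, adjusted p = 0.0127, and 0.0523 without GSK101 replicate 1). Stat3 rose by 0.29 on the log2 scale (adjusted p = 0.0214) and lost its call in 5 of 17 alternatives, with adjusted p up to 0.0761. Cebpb, Irf1, Nfkb1 and Rela had log2 fold changes of 0.16, 0.28, 0.10 and -0.15 and were not called, but Rela was called lower with quantile normalization (adjusted p = 0.0450).

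Markers of the cell types a disc culture could hold were measured beside these results. Over all tested genes, 31.9% were called, 20.1% higher and 11.9% lower, and the counts below stand beside these shares. Of 11 macrophage and leukocyte markers, all in the table and none at 0 in all libraries, 7 were tested and 1 was called, Cd14, which was higher. Their summed RPKM ran from 65.9 to 84.0 with DMSO and from 66.2 to 89.4 with GSK101, most of it from Lyz2, followed by Cd68 and Cd14. Mean RPKM with DMSO was 1.69 for Fcer1g, 1.42 for Tyrobp, 1.06 for Aif1 and 0.787 for Mrc1. It was 0.493, 0.335 and 0.308 for Ptprc, Adgre1 and Csf1r, which were below the filter. Cd163, also below it, had 0.0158 with DMSO and 0.0792 with GSK101, without overlap of the groups, on 2 to 24 reads per library. Of 5 endothelial markers in the table only Kdr was tested and it was called higher, and their summed RPKM was 0.670 to 0.945 with DMSO and 1.14 to 1.34 with GSK101. Of 8 fibroblast and tendon markers tested, 4 were higher (Dcn, Lum, Pdgfra and Prrx1) and 1 lower (Scx). Their summed RPKM was 5494 to 6205 with DMSO and 4910 to 5917 with GSK101, most of it from Col3a1 and Col1a1, neither of which was called. Of 6 chondrocyte markers 2 were tested, Acan and Sox9, and neither was called, with summed RPKM of 33.0 to 41.0 and 33.8 to 36.2. In bulk RNA, a change in the share of a cell type and a change in transcript per cell cannot be told apart, and the part of these markers in the results for C1s, Cd55 and Cd59 was not tested.

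For C1s and Cd55, the called genes with the largest absolute log2 fold changes, the most similar profiles were found by Pearson correlation over the 6 libraries. The search covered 9847 other tested genes with a mean RPKM of at least 1, leaving out symbols that are clone or locus identifiers. The 3 nearest to C1s were Hps5, Fam20b and Cad, with r of 0.998, 0.994 and 0.989, and to Cd55 Twistnb, Appbp2 and Shcbp1, with r of 0.999, 0.996 and 0.995. The correlation compares the shape of the profiles, not the size of the change. Log2 fold changes were 0.08, 0.09 and 0.23 for the first 3 genes, beside 0.60 for C1s. They were 0.33, 0.16 and 0.80 for the other 3, beside 0.42 for Cd55. With 2 groups and 6 libraries many genes look alike, as 323 genes had r over 0.9 with C1s and 1099 with Cd55.

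**Figure D4:**
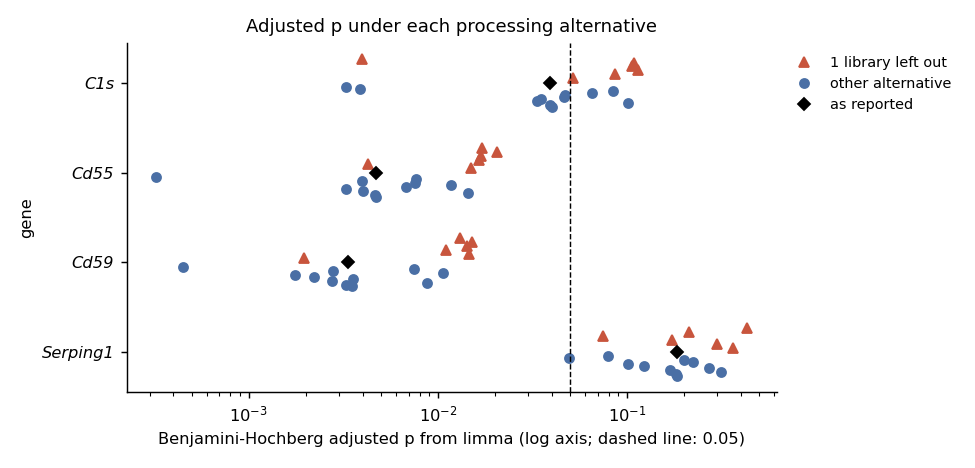
Adjusted p from limma for C1s, Cd55, Cd59 and Serping1 as reported (black diamond), with 1 library left out (red triangles) and under the other alternatives (blue circles), on a log axis with a dashed line at 0.05. All points of Cd55 and Cd59 lie left of the line, those of C1s lie on both sides, and 1 point of Serping1 lies just left of it.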

How the data were processed

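Per the labels' protocols, total RNA was extracted with TRIzol, treated with DNase and made into stranded, paired-end libraries of polyadenylated RNA with unique molecular identifiers. The authors deposited 1 table of RPKM values, with each gene's exon positions, strand and length. Tools listed in the submitters' processing notes, without role or order, were STAR 2.5.3a, Subread 1.5.1 and featureCounts, Trimmomatic 0.36 and edgeR 3.12.1, and the build was Rnor_6.0. Collapsing of identifiers, use of strand and treatment of multiply mapping reads are not given in the sources used here.

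RPKM times length gave whole multiples of a fixed step for 100% of the values above 0 (tolerance 0.01), and this step was taken as 1 read. Even numbers made up 71.3% to 74.7% of the values from 1 to 10 reads, so mates may have been counted separately. Read numbers cover counting error only.

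The test, limma 3.58.1 in R 4.3.3, took log2(RPKM + 0.5) and fitted the group alone, with a mean-variance trend, over genes with RPKM of at least 0.5 in at least 3 libraries; fold changes on this scale understate those of low genes. The script was tested on simulated data. Exact permutation tests used scipy 1.17.1. The 8 genes, the lists and the alternatives were chosen with earlier results of these data known. Named in the text were the 8 genes, the tested genes of the other complement lists and the transcription factors, up to 3 abundant members of each marker list and the 3 nearest profiles of 2 called genes; other genes named were chosen after their values were seen, and a few list members are not reported here. Start-site sequences came from RefSeq (GRCr8) and no genome sequence of the file's build was used.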

Additional observations from a re-analysis of the deposited data

How the results depend on the processing

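Of the 17 alternatives, Cd55 and Cd59 kept direction and call in all and C1s kept its direction in all, with a log2 fold change from 0.44 to 0.82, but its call in 9. The number of the 8 genes called higher was 1 in place of 2 with no filter, with no mean-variance trend and with robust moderation, and 1 to 2 when a library was left out. The number called lower was 2 in place of 1 with the replicate number as a block, where Serping1 was called (adjusted p = 0.0493), as was the transcription factor gene Cebpb, which was higher (adjusted p = 0.0487), and 1 when any library was left out. The log2 fold change of C1r ran from -0.142 to 0.0104 when a library was left out, and that of Cfb from -0.0597 to 0.0763, with -0.0229 under median-ratio scaling and -0.0614 under quantile normalization, and neither gene was called in any of these. Among the other complement genes, the number called lower was 0 with no filter and with the replicate block, 1 after rescaling to TPM, with no mean-variance trend and with limma-voom on the recovered reads, and 0 to 1 when a library was left out, in place of 2. Over all genes, the share of calls that were higher was 62.9%, and 72.4%, 52.7% and 48.1% after rescaling to TPM, with median-ratio scaling and with quantile normalization, and the numbers were 1835 to 2295 higher and 1055 to 1294 lower when a library was left out. Over all tested genes, same-numbered libraries had correlations of their deviations of 0.05, -0.06 and 0.05, so no pairing by number was seen there. These correlations cannot decide the question for single genes. Replicate 3 was lowest in both groups for C1r, C1s, Serping1, Cfb and Cfd. The block rests on the replicate number alone. Cfd had 14 to 56 reads a library and was not called, and C3 had 32 to 54, with no difference detected by the permutation test. The part of read depth in this was not tested. C3 entered the test only with no filter, and that result is not given here. Cfd was not in the test at a filter of RPKM 1.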
